A study of Homo sapiens with 30 samples.

Results

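The genes described here are those for the collagen chains, defined as every protein-coding gene whose symbol is COL, a type number, A and a chain number, and which had a row in both deposited count tables. There were 43 such genes among the 33867 genes that the tables share. They cover 28 collagen types in 8 classes: 11 fibrillar, 9 network-forming, 10 fibril-associated (FACIT), 5 beaded-filament, 4 transmembrane and 2 multiplexin genes, the anchoring-fibril gene COL7A1, and COL26A1 in none of these. COL6A5 had a row in the first table alone and was left out.

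RNA was measured in cells of MDA-MB-231, a human triple-negative breast cancer line, that carried lentiviral LeGO barcodes and had been sorted as subclone 2 or subclone 13 from tumours in NSG mice (NOD-SCID-IL2Rγc−/−), which lack T, B and natural killer cells. In the first experiment both subclones were sorted from the primary tumour, lung metastasis and liver metastasis of the same 3 mice (6 groups, 3 samples each). In the retransplantation experiment subclone 2 was sorted from lung and liver metastases of 3 other mice, numbered 4 to 6 (2 groups, 3 samples each), and the labels do not say whether the named organ is the origin of the cells or the place where they grew. Each subclone is 1 barcoded clone, so a difference between the subclones is a difference between 2 clones of the line, and every group shares the same immunodeficient host.

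Collagens are trimers of alpha chains, which are hydroxylated and assembled in the endoplasmic reticulum, secreted, trimmed and cross-linked outside the cell. Fibrillar collagens such as types I, III and V carry tensile load, type IV forms the sheet of basement membranes, and type VI forms beaded microfilaments around cells. In a carcinoma most fibrillar collagen is made by fibroblasts, but the cancer cells make collagens of their own. The type I trimer usually holds more COL1A1 than COL1A2 chains, the main type IV trimer holds COL4A1 and COL4A2 chains, and the classical type VI monomer holds a chain each of COL6A1, COL6A2 and COL6A3.

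The 18 samples of the first experiment had 11.8 to 82.2 M counts (1 M is 1000000 counts) and the 6 retransplantation samples 23.4 to 32.3 M. In the first experiment mice 1, 2 and 3 were sequenced in runs 1, 2 and 3, except that each subclone 13 sample of mouse 1 was summed from 3 libraries of runs 1 to 3. Outside those libraries an effect of the mouse and of the run cannot be told apart. Retransplantation samples came from 1 run. Levels are given in counts per M (CPM), scaled within each experiment, and levels of different genes are compared only per kilobase of transcript (CPM per kb). VIM, CD44 and KRT18, genes of this line, summed to 3724 to 9478 CPM over the 24 samples. Markers of other cells, given on total-count scaling, were sparse for some lists and not for others. ALB was at or under 0.756 CPM and DCN at or under 0.413 CPM in every sample, whereas the sum of 8 fibroblast markers, nearly all of it PDGFRB and FAP, was 30.7 to 38.7 CPM in subclone 2 tumours and 39.7 to 42.7 in subclone 13 tumours, against 7.11 to 19.9 and 7.97 to 19.3 in lung metastases and 7.49 to 18.5 and 16.6 to 24.4 in liver metastases. The sum of 6 endothelial markers, most of it PECAM1, was 15.3 to 20.9 CPM in subclone 2 tumours, 13.8 to 18.3 in lung and 25.7 to 37.5 in liver, and 17.1 to 23.7, 12.5 to 15.8 and 19.8 to 41.8 CPM in subclone 13. The hepatocyte list, nearly all of it SERPINA1 with up to 22.9 CPM of APOA1, summed to 61 to 71.9 CPM in subclone 2 tumours, 30.3 to 92.4 in lung and 29.3 to 62.6 in liver, and to 129 to 227, 89.6 to 99.2 and 149 to 230.2 CPM in subclone 13. Leukocyte markers summed to 3.85 to 22.8 CPM over the 24 samples, with PTPRC at or under 2.74, and smooth muscle and pericyte markers to 4.04 to 9.87. Lung-epithelial markers summed to 2.39 to 12.4 CPM, most of it AGER in all but a few samples. The exceptions were the subclone 13 tumour of mouse 1, with 1.63 CPM of AGER, and some retransplantation lung samples. In that lung group AGER had 3.56 to 4.26 CPM and the sums were 5.76 to 11.8. The fibroblast sums did not overlap between tumour and metastasis in either subclone, and the part of any of these lists in the comparisons below was not tested. In bulk samples fewer cells of a type and less RNA per cell cannot be told apart.

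A small set of chains made up the collagen RNA of these cells. Summed over all 43 genes, collagen counts were 0.601% ± 0.142 (SD, n = 3) of all counts in subclone 2 tumours and 0.751% ± 0.213 in subclone 13 tumours. The means were 0.467% and 0.523% in lung and 0.465% and 0.647% in liver metastases of subclones 2 and 13, and each range overlapped that of the tumours. COL6A1, a type VI chain, was the highest at a mean of 495 CPM per kb over the 18 samples, which placed it at rank 107 of 17418 tested genes. COL6A2, the next type VI chain, followed at 251 CPM per kb. COL18A1, whose C-terminal fragment is endostatin, had 141 CPM per kb, and COL13A1, a transmembrane collagen of cell adhesions, had 86.5. The next 6 were COL5A1 (44.9 CPM per kb), COL4A2 (36.9), COL7A1 (32.4), COL6A3 (30.8), COL4A1 (15.2) and COL1A2 (14.9). Exons of COL18A1 overlap SLC19A1 on the other strand over 16.4% of their length, and the libraries do not keep the strand. On total-count scaling SLC19A1 had a mean of 8.11 CPM and COL18A1 831 CPM, and the effect of the overlap on the counts was not tested.

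At the other end, 13 of the 43 genes had too few counts to be tested in the first experiment. They included COL2A1 of cartilage, COL9A1, COL22A1, COL11A1 and COL10A1. Counting the retransplantation samples, 32 genes were tested in at least 1 experiment and 11 in neither. COL3A1 and COL5A2, which in tissue accompany type I collagen and COL5A1 in fibrils, were close to absent in most samples. COL3A1 stayed at or under 5.16 CPM in 17 of 18 samples of the first experiment. The exception was the subclone 13 tumour of mouse 1, with 20.7 CPM of COL3A1 and 12.2 CPM of COL5A2, where the tumours of mice 2 and 3 had 0.563 and 2.149 CPM of COL3A1 and 0.871 and 1.27 CPM of COL5A2. All 3 libraries of that tumour showed it (16.5, 20.05 and 21 CPM of COL3A1 on total-count scaling). On the same scaling that tumour held 10.6 CPM of NKX2-1, a factor of lung epithelium and thyroid, against 0.267 and 0.650 CPM in the other 2 tumours, and 15.8 CPM of FAP against 4.0 and 4.17. Whether these values share a source was not tested.

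The share of each class in the collagen pool was set beside that in the tumours. Beaded-filament chains held 57.0% ± 5.08 of the summed collagen level per kb in subclone 2 tumours, 72.4% ± 3.68 in lung and 66.1% ± 4.95 in liver metastases. For subclone 13 the values were 57.7% ± 3.83, 70.2% ± 5.91 and 67.8% ± 5.27. The lowest lung sample (69.5% and 63.6%) was above the highest tumour (62.8% and 60.7%) in each subclone. Fibrillar chains held 11.1% ± 1.13 in subclone 2 tumours, 5.25% ± 1.40 in lung and 5.50% ± 2.28 in liver, and 8.78% ± 1.85, 3.95% ± 1.14 and 4.56% ± 1.18 in subclone 13, with no metastasis as high as any tumour of its subclone. Network-forming chains held 9.76% ± 1.06 in subclone 2 tumours and 4.07% ± 1.17 in lung metastases. Multiplexins held more of the pool in subclone 13 than in subclone 2 tumours (14.9% ± 2.87 against 8.28% ± 1.34). An exact permutation test of 3 against 3 samples cannot go below p = 0.1, so these shares are given without a test.

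**Figure D1:**
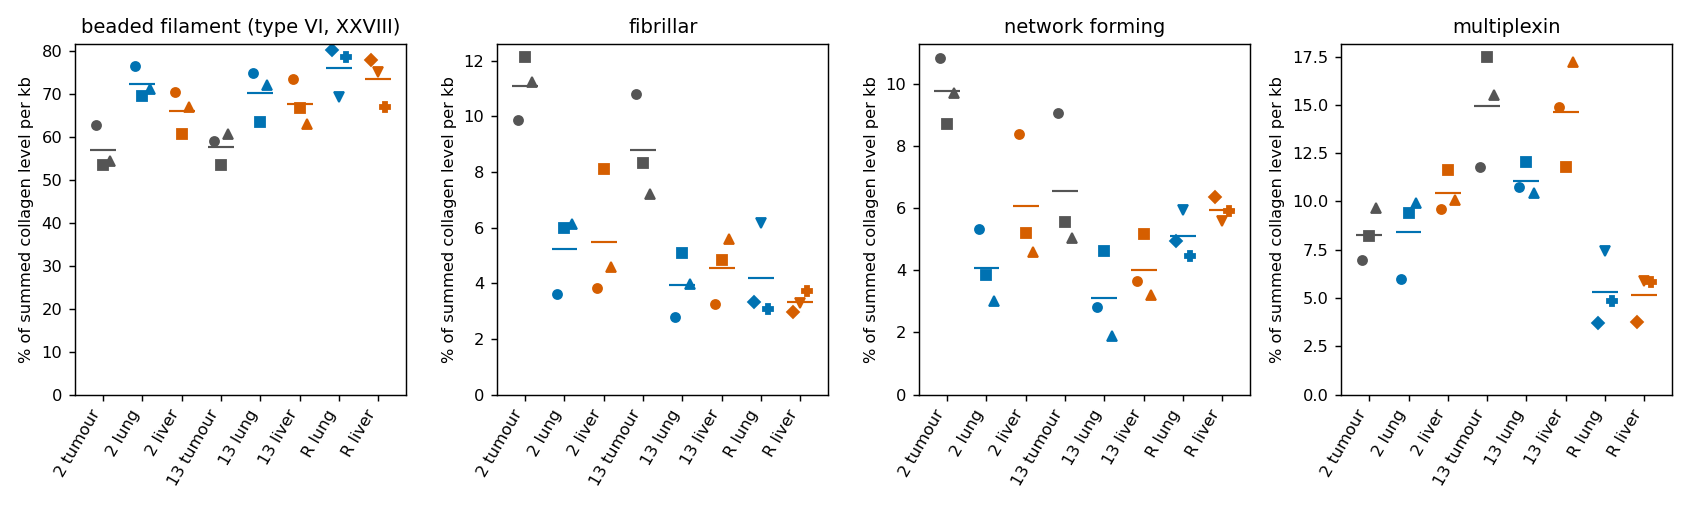
Share of the summed collagen level per kilobase (y axis, %) held by 4 collagen classes in each sample, by group on the x axis (2 and 13, subclones; R, retransplantation of subclone 2). Grey is tumour, blue lung and orange liver, 1 marker shape stands for 1 mouse and the bar is the mean of 3 samples; beaded-filament chains lie between 53.4% and 62.8% in the 6 tumours and between 63.6% and 76.6% in the 6 lung samples of the first experiment.

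The chains were compared between organs with edgeR's quasi-likelihood test, adjusted over all tested genes, with a threshold of 0.05 on the adjusted p. Values are log2 fold changes ± standard error, first without and, where the call or the count changes, with the mouse as a term, since the samples come in sets from the same animal. In subclone 2 lung metastases 5 of 30 tested chains were called against the primary tumour, all of them lower. Of all 17418 genes 0.436% were called in that comparison, and 0.253% were called lower. The median over the 30 chains was -0.48 and over all genes 0.05. In subclone 13 lung metastases 3 chains were called, all lower, against 0.419% of all genes in either direction and 0.27% lower (median -0.95 for the chains and 0.03 for all genes). In liver metastases 2 chains of subclone 2 were lower, where 0.287% of all genes were called and 0.201% were lower (medians -0.20 and 0.05). In subclone 13 liver metastases 1 chain was lower, where 0.385% of all genes were called and 0.293% were lower (medians -0.84 and 0.02). Leaving out 1 sample or mouse gave 0 to 5 calls in lung and 0 to 4 in liver of subclone 2. In subclone 13 it gave 0 to 3 calls in lung and 0 in every such run in liver. The COL6A3 call in subclone 13 lung held without any single sample, but not without mouse 2 or mouse 3 altogether. Fitted with the mouse as a term, 8 chains of subclone 2 and 9 of subclone 13 were called in lung, all lower, where 3.05% and 2.89% of all genes were called and 1.83% and 2.12% were called lower. In liver 6 and 5 chains were called, all lower, against 1.68% and 1.83% of all genes in either direction and 1.18% and 1.4% lower.

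Among the fibrillar chains, COL1A2, a chain of type I collagen, showed the largest fall. It had 104, 94.5 and 138 CPM in the subclone 2 tumours of mice 1, 2 and 3, and 14.3, 11.9 and 16.1 CPM in their lung metastases. In subclone 13 it had 176, 141 and 159 CPM in the tumours and 26.1, 19.3 and 27 CPM in the lungs. Every lung sample was well under every tumour sample. COL1A2 fell by 2.99 ± 0.41 in subclone 2 (edgeR adjusted p = 0.00294) and by 2.72 ± 0.41 in subclone 13 (adjusted p = 0.00566). The call ended without the lung sample of mouse 2 (adjusted p = 0.0501 in subclone 2 and 0.053 in subclone 13) and without mouse 3 altogether (0.196 and 0.168), while the change of COL1A2 stayed between -3.13 and -2.58 over all omissions of a sample or mouse. In liver metastases the COL1A2 values were 56.0, 159 and 36.0 CPM in subclone 2 and 99.0, 64.1 and 105 CPM in subclone 13. The highest subclone 2 liver sample lay above all 3 tumours, and the change against the tumour was -0.42 ± 0.38 (adjusted p = 1) and -0.83 ± 0.38 (adjusted p = 0.801, edgeR).

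Set against each other, lung metastases of subclone 2 had less COL1A2 than liver metastases, by 2.57 ± 0.41 (edgeR adjusted p = 0.0402). It was the 1 chain of 30 called, where 0.023% of all genes were called and 0.0172% were lower. The call was lost without any 1 of the 3 lung samples (adjusted p = 0.0572, 0.246 and 0.180 without mouse 1, 2 and 3), without the samples of mouse 2 (change of -1.58) or of mouse 3, and in a fit of the 6 samples alone (adjusted p = 0.682). The endothelial markers separated the same organs (13.8 to 18.3 CPM in lung and 25.7 to 37.5 in liver, with PECAM1 at 10.6 to 15.8 and 23.9 to 33.9), and their part in the COL1A2 difference was not tested. With the mouse as a term 1 chain, COL1A1, was called higher in the lung of subclone 2 (1.63% of all genes were) and 4 were lower (1.32%), namely COL1A2, COL6A3, COL8A1 and COL17A1, with 2.95% of all genes called in either direction. COL1A2 was lower in the lung in both subclones (-2.58 ± 0.40, adjusted p = 0.00274, and -1.89 ± 0.38, adjusted p = 0.0377). Without that term no chain was called between the organs in subclone 13, where no gene (0%) was called by edgeR and 792 genes (4.55%) and 5 of 30 chains had an unadjusted p under 0.05, while DESeq2 called 1 chain and 0.337% of its tested genes. Endothelial sums were again lower in the lung than in the liver samples of that subclone, with no overlap. The hepatocyte sums also separated these organs in subclone 13, lower in lung, whereas in subclone 2 they overlapped. With that term COL1A2 was the 1 chain called there, against 0.276% of all genes in either direction and 0.0861% lower.

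COL1A1, the partner chain, showed another order of the organs. It had 35.0, 74.2 and 111 CPM in the subclone 2 tumours, 21, 73.7 and 77.9 in lung and 7.76, 14.6 and 24.8 in liver metastases. Lung and tumour overlapped, and so did lung and liver, although the liver sample was the lowest of the 3 organs in every mouse. The COL1A1 change was -0.35 ± 0.60 in lung and -2.22 ± 0.62 in liver without the mouse term (adjusted p = 0.931 and 0.232), and with it COL1A1 was lower in liver than in tumour (-2.22 ± 0.49, adjusted p = 0.022) and higher in lung than in liver (1.91 ± 0.49, adjusted p = 0.0401, edgeR). In subclone 13 the COL1A1 groups overlapped (27.7 to 107 CPM in tumours, 28.9 to 49.9 in lung and 16.4 to 65.2 in liver). The ratio of COL1A1 to COL1A2 per kb was 0.272 to 0.649 in the subclone 2 tumours, 1.18 to 4.99 in lung and 0.0740 to 0.555 in liver. In subclone 13 it was 0.157 to 0.487, 1.01 to 1.49 and 0.189 to 0.498. In both subclones each lung sample had a higher ratio than each tumour and liver sample.

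COL5A1, which controls the width of type I fibrils, was the most abundant fibrillar chain. Its levels were 510, 622 and 883 CPM in the subclone 2 tumours, 188, 297 and 389 in lung and 198, 243 and 196 in liver metastases. Subclone 13 had 547, 522 and 745 CPM in tumours, 163, 227 and 269 in lung and 300, 177 and 374 in liver. Tumours and metastases did not overlap in any of these 4 comparisons. COL5A1 fell by 1.66 ± 0.32 in subclone 2 liver metastases (edgeR adjusted p = 0.0308). The other changes were -1.20 ± 0.32, -1.46 ± 0.32 and -1.09 ± 0.32 without the mouse term (adjusted p = 0.129, 0.0518 and 0.235), and all 4 were called with it (adjusted p = 0.00662, 0.000791, 0.00173 and 0.0167). The COL5A1 call in liver without the mouse term ended when any 1 of 5 of the 6 samples was left out (adjusted p from 0.0652 to 0.164) and held without the tumour of mouse 1. COL27A1, a fibrillar chain of developing cartilage, had 20.1 to 148 CPM and was called nowhere in either fit.

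**Figure D2:**
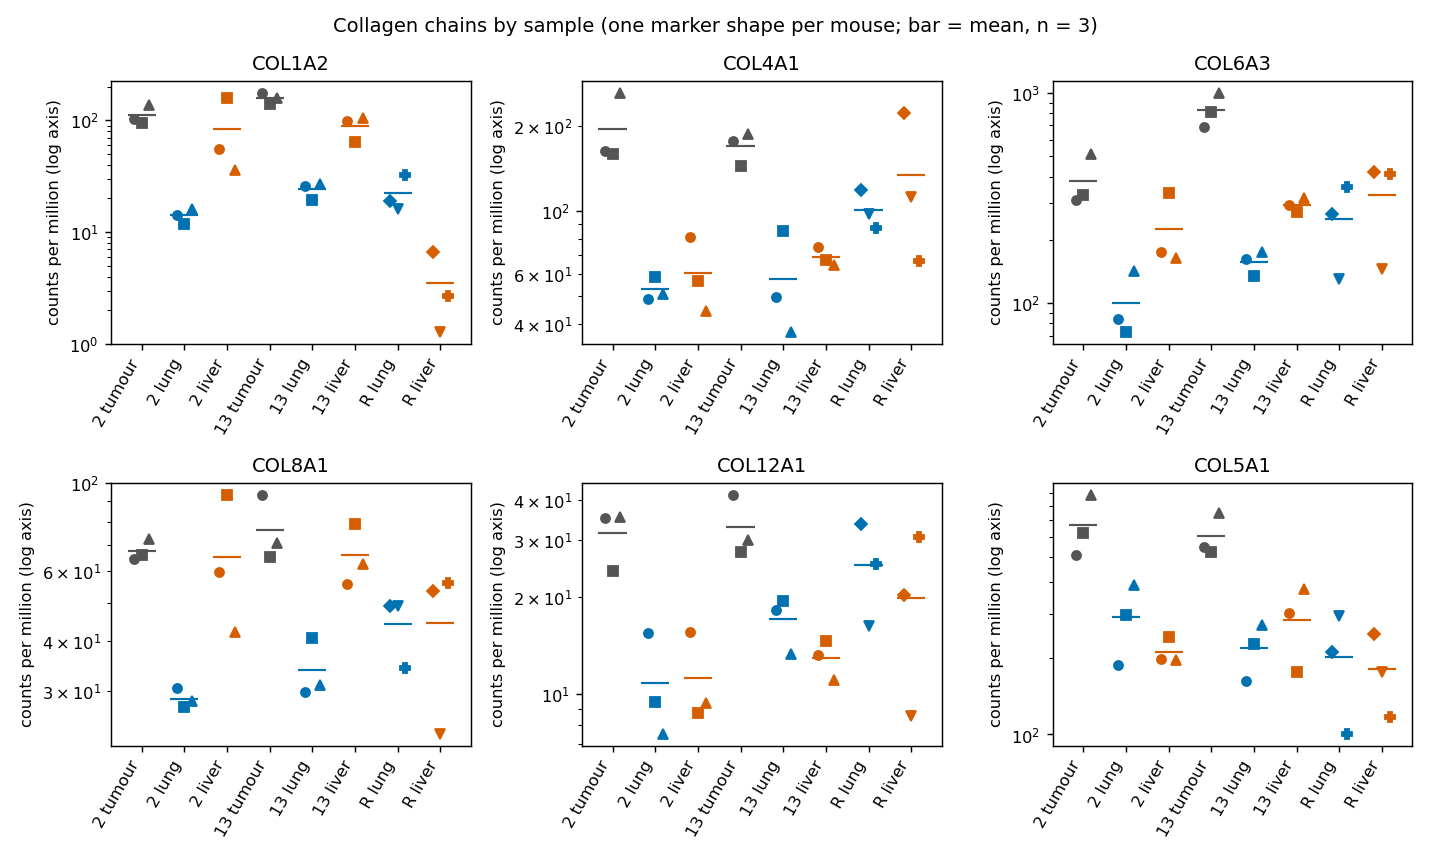
Levels of the 6 chains called without the mouse term (y axes, CPM, log scale) in each sample by group (x axis: 2 and 13, subclones; R, retransplantation of subclone 2, scaled separately). Grey is tumour, blue lung and orange liver, each marker shape is 1 mouse and the bar is the mean of 3; for COL1A2 all 6 lung samples of the first experiment lie between 11.9 and 27 and all 6 tumours between 94.5 and 176.

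Of the network-forming chains, the basement membrane chain COL4A1 was lower in metastases of both organs. It had 163, 159 and 262 CPM in the subclone 2 tumours, 49.0, 58.6 and 51.0 in lung and 80.9, 56.6 and 44.2 in liver metastases. In subclone 13 the tumours had 177, 144 and 188 CPM, the lungs 49.6, 85.0 and 37.4 and the livers 74.9, 67.3 and 64.5. No metastasis reached any tumour of its subclone. In subclone 2 COL4A1 fell by 1.88 ± 0.30 in lung and 1.69 ± 0.30 in liver (edgeR adjusted p = 0.00857 and 0.0192), and in subclone 13 by 1.57 ± 0.30 in lung (adjusted p = 0.0213). Its change in subclone 13 liver was -1.30 ± 0.29, not called without the mouse term (adjusted p = 0.0715) and called with it (0.0148). In subclone 2 the lung call ended without the lung sample of mouse 2 (adjusted p = 0.0569), and the liver call without the liver samples of mice 2 and 3 and the tumour of mouse 3 (0.0649, 0.0906 and 0.111). In subclone 13 the COL4A1 lung call ended without any 1 sample other than the lung of mouse 2 (adjusted p from 0.0549 to 0.126).

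COL4A2 shares its promoter region with COL4A1 and is transcribed in the other direction. On GRCh38 in GENCODE v29, COL4A1 lies at chr13:110148963-110307233 on the minus strand and COL4A2 at chr13:110305812-110513209 on the plus strand. In RefSeq (GRCh38.p14) the starts of the 2 genes, 110307157 and 110307284, are 127 bases apart. The 126 bases between them, chr13:110307158-110307283, are shown because both chains were lower in lung metastases with the mouse as a term, and are read 5′ to 3′ on the plus strand, toward COL4A2. In GENCODE v29 this stretch lies wholly within the COL4A2 gene, and the COL4A1 gene begins inside it, at 110307233. Capitals mark a CCAAT box and a GGGCGG (GC box), each searched on both strands.

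COL4A1/COL4A2: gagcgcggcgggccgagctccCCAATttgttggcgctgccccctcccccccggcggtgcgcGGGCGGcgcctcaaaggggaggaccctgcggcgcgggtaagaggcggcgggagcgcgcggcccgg

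The COL4A2 levels were 390, 276 and 548 CPM in subclone 2 tumours, 214, 136 and 119 in lung and 377, 139 and 158 in liver metastases. In subclone 13 they were 381, 258 and 367 CPM in tumours, 143, 157 and 92.3 in lung and 297, 127 and 140 in liver. Lung and tumour did not overlap in either subclone, while the liver sample of mouse 1 stood above the lowest tumour in both. COL4A2 changed by -1.37 ± 0.41 and -1.36 ± 0.41 in lung (adjusted p = 0.200 and 0.224) and was called there with the mouse term (-1.43 ± 0.30 and -1.33 ± 0.30, adjusted p = 0.0126 and 0.0204, edgeR). In liver its changes were -0.85 ± 0.41 and -0.84 ± 0.41, not called in either fit. The ratio of COL4A1 to COL4A2 per kb lay between 0.411 and 0.567 in the 6 tumours and between 0.211 and 0.531 in the 12 metastases of the first experiment.

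COL8A1, a short-chain network collagen of vessel walls and the cornea, was lower in lung metastases. It had 64.6, 65.8 and 72.4 CPM in the subclone 2 tumours, 30.5, 27.3 and 28.2 in lung and 59.97, 93.6 and 42.1 in liver metastases. The lung samples were tight and under all others, and the liver samples spread on both sides of the tumours. COL8A1 fell by 1.24 ± 0.26 in subclone 2 lung (edgeR adjusted p = 0.041), a call that ended when any 1 of the 6 samples was left out (adjusted p from 0.113 to 0.183). In subclone 13 COL8A1 went from 93.6, 65.3 and 70.6 CPM in the tumours to 29.8, 40.8 and 31.1 in lung, a change of -1.18 ± 0.26 (adjusted p = 0.0525, and 0.00677 with the mouse term). Its changes in liver were -0.05 ± 0.26 and -0.22 ± 0.26.

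The 3 chains of type VI collagen did not share a pattern. COL6A3, the long chain of the trimer, had 308, 328 and 511 CPM in the subclone 2 tumours, 84.3, 72.9 and 142 in lung and 175, 335 and 163 in liver metastases. Subclone 13 had 687, 810 and 999 CPM in tumours, 162, 134 and 175 in lung and 292, 272 and 316 in liver. All lung samples were under all tumours, and in subclone 2 the liver sample of mouse 2 reached tumour levels. COL6A3 fell by 1.94 ± 0.32 and 2.40 ± 0.32 in lung (edgeR adjusted p = 0.0101 and 0.00193) and by 1.5 ± 0.31 in subclone 13 liver (adjusted p = 0.0387), and its change in subclone 2 liver was -0.77 ± 0.31 (adjusted p = 0.566). The lung call in subclone 2 ended without the lung samples of mouse 1 or 2 (adjusted p = 0.0592 and 0.0669), that in subclone 13 held without any single sample but not without mouse 2 or mouse 3 altogether (0.163 and 0.168), and the COL6A3 liver call ended without any 1 of the 6 samples (adjusted p from 0.0588 to 0.235).

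COL6A1 and COL6A2 were not called against the tumour in either fit. COL6A1 had 1727, 1537 and 2308 CPM in subclone 2 tumours, 2014, 2105 and 2258 in lung and 2094, 1638 and 1778 in liver metastases. In subclone 13 it had 1714, 1686 and 2916 CPM in tumours, 2285, 1602 and 2484 in lung and 3860, 1496 and 2224 in liver. Its 4 changes against the tumour lay between -0.02 ± 0.32 and 0.26 ± 0.32. COL6A2 had 445, 373 and 667 CPM in subclone 2 tumours, 689.9, 589 and 878 in lung and 623, 499 and 655 in liver. In subclone 13 COL6A2 had 714, 835 and 1476 CPM in tumours, 1324, 811 and 1403 in lung and 1530, 758 and 1369 in liver. Its changes lay between 0.23 ± 0.33 and 0.54 ± 0.33. Tumours and metastases overlapped for both genes, and a failure to pass does not show equal levels. The ratio of COL6A3 to COL6A1 per kb was 0.0704 to 0.0873 in subclone 2 tumours and 0.0137 to 0.0248 in lung, and 0.135 to 0.189 and 0.0278 to 0.0330 in subclone 13. In liver it was 0.0329 to 0.0807 and 0.0298 to 0.0718.

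COL6A3 is transcribed from the minus strand of chromosome 2 (chr2:237324003-237414375 on GRCh38 in GENCODE v29). The 250 bases before its RefSeq start, chr2:237414165-237414414 (GRCh38.p14, minus strand, 5′ to 3′), are shown beside those of COL7A1, chr3:48595330-48595579 (minus strand), because the 2 chains were called lower in metastases with the mouse as a term and their starts differ in sequence. In GENCODE v29 the COL6A3 gene begins at 237414375, so most of its stretch, chr2:237414165-237414375, lies within the gene. The COL7A1 gene begins at 48595267 there, so its stretch lies wholly before the gene. Capitals mark matches, on either strand, to the TATA box TATAAA, the CCAAT box, the GC box GGGCGG, the AP-1 motif TGANTCA and the SMAD-binding sequence CAGACA.

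COL6A3: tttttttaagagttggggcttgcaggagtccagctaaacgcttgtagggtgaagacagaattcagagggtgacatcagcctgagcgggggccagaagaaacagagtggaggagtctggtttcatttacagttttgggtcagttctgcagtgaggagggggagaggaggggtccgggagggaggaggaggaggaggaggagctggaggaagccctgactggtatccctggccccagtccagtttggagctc

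COL7A1: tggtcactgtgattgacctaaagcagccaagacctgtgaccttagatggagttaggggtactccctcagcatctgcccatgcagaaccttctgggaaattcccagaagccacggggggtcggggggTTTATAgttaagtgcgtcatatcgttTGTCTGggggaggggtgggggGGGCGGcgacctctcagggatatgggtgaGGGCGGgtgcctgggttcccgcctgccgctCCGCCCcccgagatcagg

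The COL6A3 window held none of the 5 motifs, which says only that these letters are not there. The COL7A1 window held 1 match to TATAAA, 3 to GGGCGG and 1 to CAGACA. The TATAAA match (printed as TTTATA) and the CAGACA match (TGTCTG) were on the strand opposite to the gene. Promoter windows of 250 bases before to 50 after the start were available from RefSeq for 32 of the 43 genes, as 44 windows. The 11 genes without a window include COL1A1, COL1A2, COL3A1, COL6A1 and COL8A1. Some genes had several windows, so the shares are of windows and not of genes. At least 1 GGGCGG was in 54.5% of the collagen windows and in 45.0% of 35116 windows of all genes. The shares were 31.8% and 34.6% for CCAAT, 18.2% and 11.5% for TATAAA, 11.4% and 16.9% for CAGACA, and 2.27% and 7.71% for TGANTCA, the last being 1 window, of COL10A1. No matches overlapped in the stretches printed, and a match is a description of the sequence alone.

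**Figure D3:**
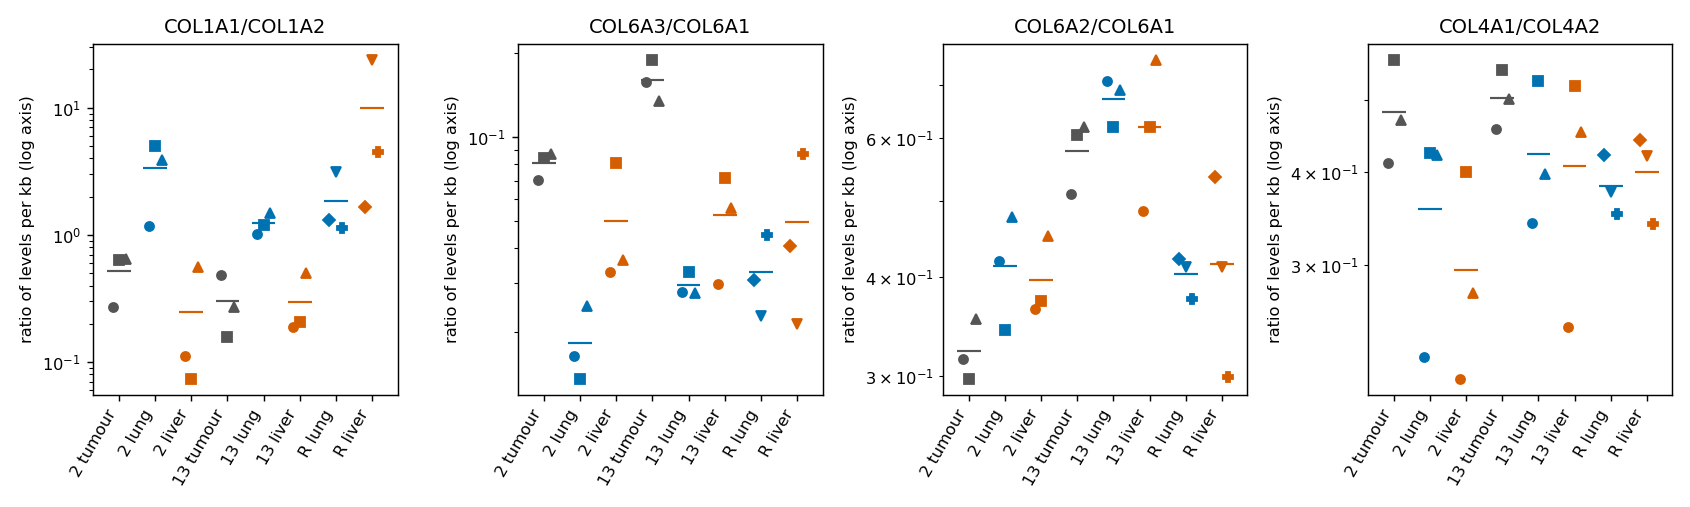
Ratios of the levels per kilobase (y axes, log scale) of chains that share a trimer, in each sample by group (x axis: 2 and 13, subclones; R, retransplantation). Grey is tumour, blue lung and orange liver, each marker shape is 1 mouse and the bar is the mean of 3; COL6A3/COL6A1 is lower in each lung sample of the first experiment than in any tumour of its subclone, and COL1A1/COL1A2 is higher.

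COL7A1, the anchoring fibril that ties basement membrane to stroma, depended on the mouse. Its levels were 158, 733 and 804 CPM in the subclone 2 tumours of mice 1, 2 and 3, 97.1, 358 and 292 in lung and 64.1, 199 and 256 in liver. Subclone 13 had 144, 444 and 596 CPM in tumours, 81.2, 264 and 346 in lung and 94.5, 142 and 336 in liver. Mouse 1 was lowest in all 6 groups, and within every mouse both metastases were under the tumour in both subclones. The libraries of subclone 13 of mouse 1 from runs 1, 2 and 3 are given on total-count scaling. They had 121, 140 and 137 CPM of COL7A1 in the tumour, 54.3, 75.8 and 74.1 in lung and 80.0, 82.3 and 86.7 in liver. An effect of the run was not tested. Without the mouse term the 4 COL7A1 changes lay between -0.78 ± 0.70 and -1.71 ± 0.71 and none was called, the smallest adjusted p being 0.612. With it COL7A1 was lower in subclone 2 lung and liver (-1.06 ± 0.23, adjusted p = 0.0157, and -1.63 ± 0.24, adjusted p = 0.000684) and in subclone 13 liver (-0.96 ± 0.23, adjusted p = 0.0373, edgeR).

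Of the FACIT chains, which coat the surface of fibrils, COL12A1 was lower in metastases. It had 35.1, 24 and 35.2 CPM in the subclone 2 tumours, 15.5, 9.44 and 7.53 in lung and 15.5, 8.74 and 9.38 in liver. Subclone 13 had 41.5, 27.6 and 30.0 CPM in tumours, 18.3, 19.4 and 13.3 in lung and 13.2, 14.6 and 11 in liver. Tumours and metastases did not overlap. COL12A1 fell by 1.54 ± 0.31 in subclone 2 lung (edgeR adjusted p = 0.0357), and its changes in the other 3 comparisons were -1.5 ± 0.31 in subclone 2 liver (adjusted p = 0.0504), -0.95 ± 0.31 in subclone 13 lung (0.281) and -1.35 ± 0.31 in subclone 13 liver (0.0772). All 4 were called with the mouse term (adjusted p = 0.00131, 0.00197, 0.0402 and 0.0054). The COL12A1 call without that term ended without the lung samples of mice 2 and 3 and the tumours of mice 1 and 3 (adjusted p = 0.183, 0.157, 0.113 and 0.132). COL16A1, a minor FACIT-type chain of fibril surfaces, had 7.18, 17.5 and 20.7 CPM in subclone 2 tumours, 3.31, 8.06 and 8.11 in lung and 1.92, 6.41 and 7.68 in liver. In subclone 13 it had 4.94, 8.4 and 13.4 CPM in tumours, 2.54, 2.58 and 6.75 in lung and 3.81, 3.02 and 4.2 in liver. Tumours and metastases overlapped except in subclone 13 liver, and COL16A1 was called in subclone 2 liver with the mouse term alone (-1.53 ± 0.37, adjusted p = 0.0366). COL9A2, a cartilage FACIT chain, had changes above 0 in all 4 comparisons (0.53 ± 0.46 to 1.08 ± 0.46) and was not called in either fit.

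Of the transmembrane and multiplexin chains, the adhesion collagen COL13A1 had 183, 226 and 349 CPM in subclone 2 tumours, 179.6, 198 and 209 in lung and 184, 307 and 265 in liver. In subclone 13 COL13A1 had 238, 445 and 463 CPM in tumours, 283, 329 and 331 in lung and 204, 229 and 342 in liver. The groups overlapped except that subclone 13 lung lay above subclone 2 lung, and COL13A1 was not called in any comparison of either fit. COL17A1, a hemidesmosome collagen, had 37.0, 48.0 and 41.5 CPM in subclone 13 tumours, 16.4, 17.1 and 15.4 in lung and 27.5, 19.7 and 14 in liver metastases. Lung and tumour did not overlap, and COL17A1 was called lower in the lung with the mouse term (-1.38 ± 0.34, adjusted p = 0.0325) but not without it (-1.37 ± 0.37, adjusted p = 0.141). In subclone 2 it had 24.8, 21.1 and 28.8 CPM in tumours, 20.5, 9.08 and 12.4 in lung and 20.8, 24.5 and 58.3 in liver, and was lower in lung than in liver with the mouse term (-1.31 ± 0.35, adjusted p = 0.0448, edgeR). COL18A1 had 372, 453 and 823 CPM in subclone 2 tumours, 315, 538 and 660.0 in lung and 556, 637 and 556 in liver, with overlapping groups and changes of -0.12 ± 0.38 and 0.09 ± 0.38. In subclone 13 it had 790.5, 1376 and 1817 CPM in tumours, 794, 701 and 862 in lung and 1652, 621 and 1534 in liver, again with overlap, and it was called in no comparison of either fit.

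**Figure D4:**
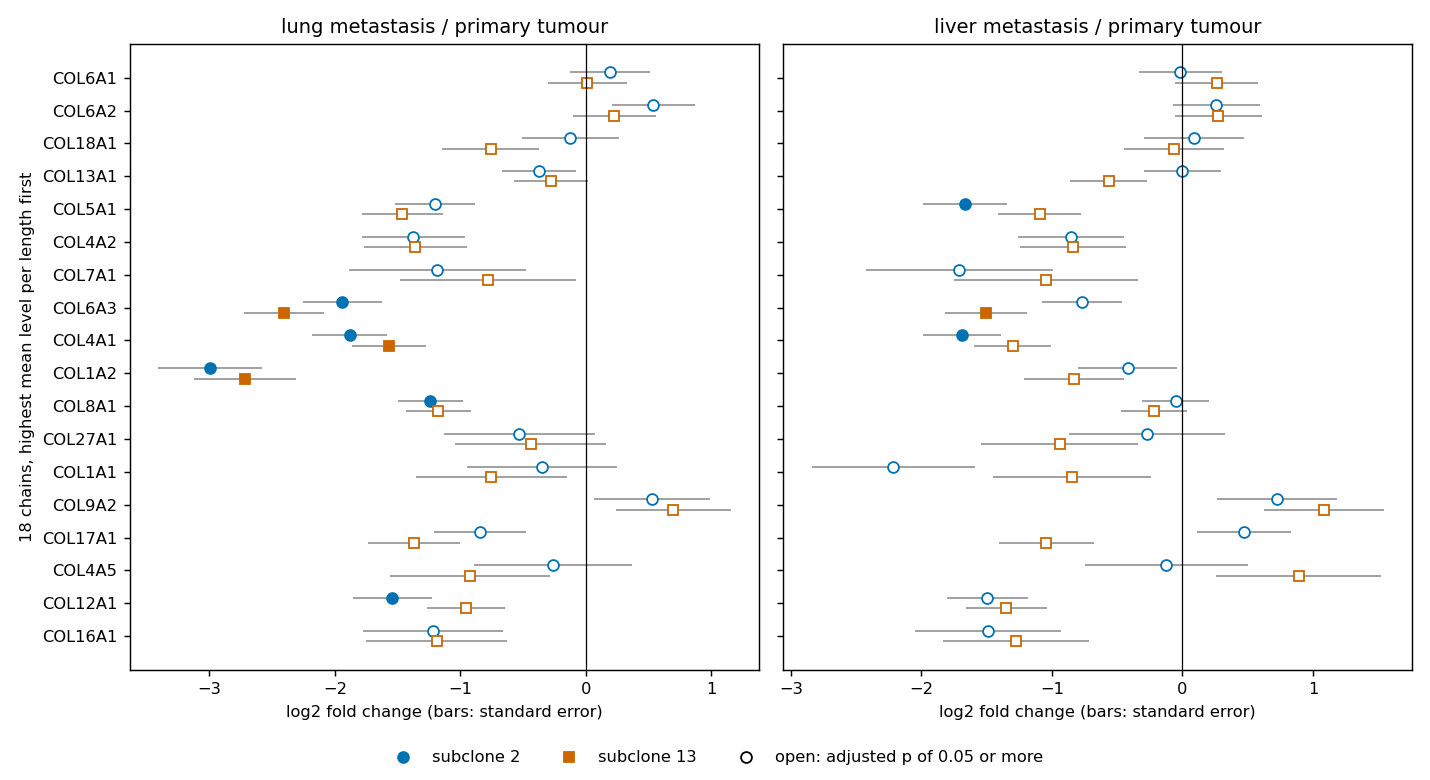
Log2 fold change (x axis) of the 18 tested chains with the highest mean level per kilobase (y axis, highest first), for lung (left) and liver (right) metastasis against primary tumour in subclone 2 (circles) and subclone 13 (squares). Bars are standard errors and filled symbols passed an adjusted p of 0.05 without the mouse term; COL1A2 lies at -2.99 and -2.72 in lung and at -0.42 and -0.83 in liver, and COL6A1 lies between -0.02 and 0.26.

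Between the subclones no chain was called without the mouse term, in tumours (0.109% of all genes called), lung (0.184%) or liver metastases (0.247%). At an unadjusted p under 0.05 edgeR gave 6, 8 and 5 of 30 chains in tumours, lung and liver, against 4.36%, 7.03% and 7.23% of all genes. DESeq2 called 1, 0 and 1 chains in the 3 organs, against 0.546%, 1.29% and 1.53% of the genes it tested. The hepatocyte list summed higher in every subclone 13 than in every subclone 2 sample in tumours and in liver, as did the fibroblast and leukocyte lists in tumours, and their part in the differences between subclones was not tested. With the mouse as a term COL6A2 and COL15A1 were higher in subclone 13 in tumours (2 of 30, against 0.505% of all genes), no chain passed the test in lung (1.54%) and COL6A2 was higher in liver (1.5%). In the higher direction alone 0.344% of all genes were called in tumours and 0.976% in liver. COL6A2 differed by 1.03 ± 0.21 in tumours (adjusted p = 0.0291), 0.70 ± 0.21 in lung (0.110) and 1.01 ± 0.21 in liver (0.020). COL15A1, a multiplexin of basement membrane zones, had 7.77, 7.53 and 7.40 CPM in the subclone 13 tumours and 0.372, 1.08 and 1.5 in the subclone 2 tumours, a difference of 2.84 ± 0.63 (adjusted p = 0.0489 with the mouse term and 0.152 without, edgeR). The groups stood far apart in tumours. In lung COL15A1 had 2.49, 0.881 and 1.33 against 0.403, 0.317 and 0.573 CPM, and in liver 6.51, 2.12 and 1.18 against 1.09, 1.36 and 0.813, where the groups overlapped. Within subclone 13 COL15A1 was lower in lung than in tumour with the mouse term (-2.32 ± 0.61, adjusted p = 0.0463) and not called without it (-2.25 ± 0.64, adjusted p = 0.176).

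The organ contrasts were also set against each other between the subclones. No chain passed that test in any of the 3 contrasts in either edgeR fit or in DESeq2. Of all genes 0% passed without the mouse term and at most 0.00574% with it, and 1 chain had an unadjusted p under 0.05 in each contrast without that term, against 0.792%, 1.71% and 1.98% of all genes for lung against tumour, liver against tumour and lung against liver. A call in 1 subclone and not in the other is therefore not shown to be a difference between them.

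In the retransplantation samples of subclone 2, COL3A1 and COL1A2 were higher in the lung samples than in the liver samples. COL3A1 had 8.20, 18 and 13.9 CPM in the lung samples of mice 4, 5 and 6 and 0.806, 0.395 and 0.655 in the liver samples. COL1A2 had 19.1, 16 and 32.3 CPM in lung and 6.58, 1.28 and 2.68 in liver. For both genes every lung sample was above every liver sample. With the mouse as a term these 2 of 30 tested chains were called (COL3A1 4.40 ± 0.43, adjusted p = 0.0167; COL1A2 2.90 ± 0.44, adjusted p = 0.0475, edgeR), against 0.479% of all genes in either direction and 0.393% higher. Without that term no gene was called (0%), the differences were 4.44 ± 0.42 (adjusted p = 0.0774) and 2.69 ± 0.57 (adjusted p = 0.158), and 4 of 30 chains had an unadjusted p under 0.05, a share near the 12.5% of all genes that did. DESeq2 called 3 chains, against 2.27% of the genes it tested. Leaving out the liver sample of mouse 5 gave 1 call, COL3A1 (adjusted p = 0.0178).

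Markers of other cells separated the same samples, some in the same direction and some in the opposite one. SFTPC, the surfactant protein of alveolar type II cells, had 0.891, 2.96 and 3.19 CPM in the retransplantation lung samples and 0 to 0.0331 CPM in the liver samples, and it was at 0 in all 6 lung samples of the first experiment. NKX2-1 had 1.18, 2.59 and 4.30 CPM in those lung samples and 0 to 0.0309 in liver. AGER, a marker of alveolar type I cells on the same list, went the other way, with 3.56 to 4.26 CPM in lung and 4.70 to 8.01 in liver, and the sums of the lung-epithelial list overlapped (5.76 to 11.8 and 4.70 to 8.04 CPM). The leukocyte gene PTPRC had 1.43, 1.10 and 2.74 CPM in lung and 0.299, 0.364 and 0.309 in liver, while the sums of the leukocyte list overlapped (9.86 to 17.2 and 9.1 to 17.4 CPM). SERPINA1 of the hepatocyte list was lower in lung (13 to 26.3 CPM) than in liver (37.3 to 75.7), and the endothelial sums overlapped (20.1 to 28.8 and 9.31 to 23.1 CPM). The fibroblast markers did not move in the same way: their sum was 9.0 to 15.3 CPM in lung and 14.2 to 28.8 in liver, while DCN was at or under 0.298 CPM and POSTN at or under 0.223 CPM in all 6 samples. SPARC, a collagen-binding matrix protein, set the subclones apart in the first experiment (8.62 to 37.9 CPM in subclone 2 and 288 to 673 in subclone 13). From lowest to highest, not in the order of the mice, SPARC had 35.9, 38.4 and 155 CPM in the retransplantation lung samples. The liver samples, listed in the same way, had 15, 154 and 341 CPM. All of these retransplantation samples were labelled subclone 2. The part of these genes in the COL3A1 and COL1A2 difference was not tested.

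COL1A2 pointed in opposite directions in the 2 experiments, lower in lung than in liver in the first and higher in the second. The ranges in lung touched (11.9 to 16.1 CPM in the first experiment and 16 to 32.3 in the second), and those in liver were far apart (36.0 to 159 against 1.28 to 6.58), with each experiment scaled on its own. In the joint fit of the 12 samples the 2 COL1A2 contrasts differed by 5.30 ± 0.86, which did not pass edgeR's test without the mouse term (adjusted p = 0.551) or with it (0.176), where 0% of all genes passed. DESeq2 called 1 of 32 chains and 0.0583% of the genes it tested, and edgeR with no filter on low counts called 1 of 43 chains and 0.00591% of all genes. In the filtered edgeR fit 4 of 32 chains and 1110 of 18950 genes (5.86%) had an unadjusted p under 0.05. COL1A1 had 30.9, 61.7 and 45.6 CPM in retransplantation lung and 13.5, 37.8 and 15.1 in liver. The COL1A1 to COL1A2 ratio per kb was 1.14 to 3.11 in that lung group and 1.66 to 23.8 in liver, where in the first experiment the lung samples had the higher ratio. COL7A1 was lower in lung (281, 327 and 363 CPM) than in liver (444, 569 and 519) with no overlap, a change of -0.66 ± 0.19 (adjusted p = 0.254). The other chains called in the first experiment overlapped between the retransplantation organs. COL4A1 had 119, 97.4 and 87 CPM in lung and 224, 113 and 66.9 in liver, and COL4A2 277, 255 and 243 and 497, 263 and 193.

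Among the remaining chains of the retransplantation samples, COL6A3 had 266, 130.4 and 355 CPM in lung and 423, 145 and 409.7 in liver. COL5A1 had 212, 294 and 101 CPM in lung and 249.1, 177 and 118 in liver, COL8A1 49, 49 and 34.3 and 53.7, 23.4 and 56.2, and COL12A1 33.6, 16.3 and 25.3 and 20.3, 8.54 and 30.7. None of these chains separated the organs. The type VI ratios overlapped between the organs. COL6A3 to COL6A1 per kb was 0.0230 to 0.0447 in lung and 0.0215 to 0.0873 in liver, and COL6A2 to COL6A1 was 0.375 to 0.422 and 0.299 to 0.536. Beaded-filament chains held 76.1% ± 5.95 of the collagen level per kb in lung and 73.4% ± 5.72 in liver, and fibrillar chains 4.19% ± 1.71 and 3.33% ± 0.382. COL15A1, low in subclone 2 of the first experiment, had 0.751, 0.558 and 0.303 CPM in lung and 0.891, 1.49 and 0.312 in liver.

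**Figure D5:**
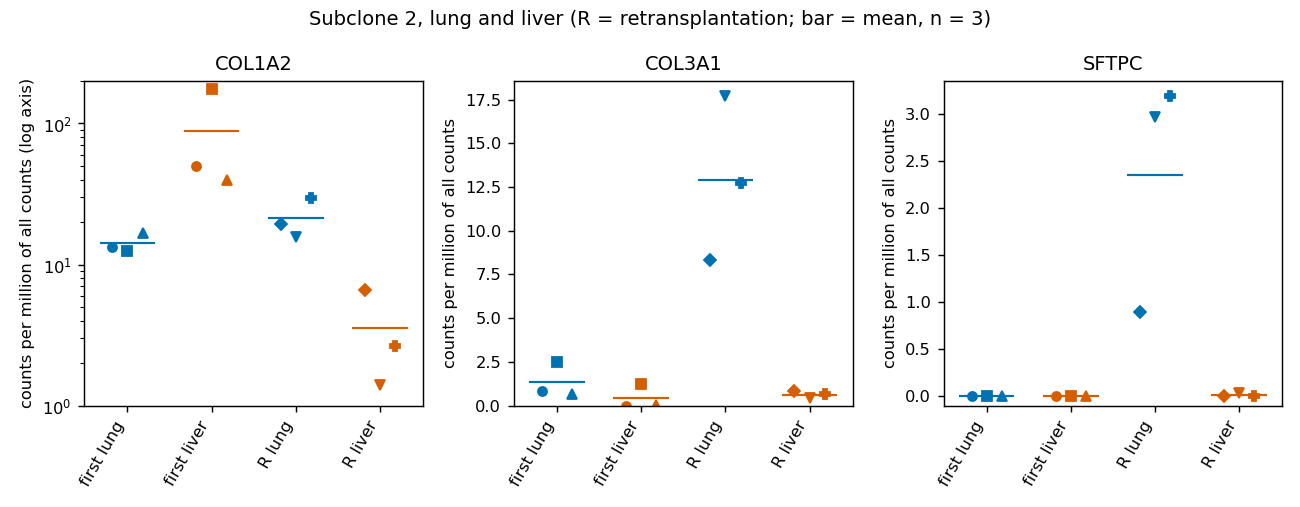
Levels in CPM of all counts (y axes, log scale for COL1A2) of COL1A2, COL3A1 and the surfactant gene SFTPC in lung (blue) and liver (orange) samples of subclone 2 from the first experiment and the retransplantation experiment (R), with total-count scaling so that the experiments share a scale. Each marker shape is 1 mouse and the bar is the mean of 3; COL1A2 is lower in lung than in liver in the first experiment and higher in the second, where SFTPC and COL3A1 are also seen in the lung samples.

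Genes that make, trim and cross-link collagen were followed as a list of 35, of which 32 were tested. In each of the 4 metastasis against tumour comparisons 1 of 32 was called, LOX, the lysyl oxidase that starts cross-linking, and it was lower, where 0.287% to 0.436% of all genes were called. LOX had 102 to 158 CPM in subclone 2 tumours, 27.9 to 51.3 in lung and 34.2 to 39.5 in liver, and 108 to 208, 38.7 to 51.3 and 46.6 to 55.4 CPM in subclone 13. No metastasis reached a tumour. LOX fell by 1.79 ± 0.27 and 1.78 ± 0.27 in lung and liver of subclone 2 (edgeR adjusted p = 0.00736 and 0.00566) and by 1.79 ± 0.27 and 1.64 ± 0.27 in subclone 13 (0.00568 and 0.00747). The list's medians were -0.46, -0.17, -0.46 and -0.25 for subclone 2 lung and liver and subclone 13 lung and liver, beside 0.05, 0.05, 0.03 and 0.02 for all genes. With the mouse term 6, 3, 7 and 1 members were lower and 0, 0, 1 and 0 higher, where 3.05%, 1.68%, 2.89% and 1.83% of all genes were called. The 1 of 32 in subclone 13 liver is near that share. Without the mouse term SPARC was the 1 member called between the subclones in each organ. Of all genes 0.109%, 0.184% and 0.247% were called in tumours, lung and liver. SPARC was higher in subclone 13 by 4.46 ± 0.43 in tumours, 4.73 ± 0.44 in lung and 4.64 ± 0.43 in liver. With that term SPARC was the 1 member called in tumours (0.505% of all genes). In lung and liver SPARC and FKBP10 were then higher and COLGALT1 lower (1.54% and 1.5% of all genes called). Of 11 collagen receptors, which include integrin and discoidin-domain chains, 10 were tested and none was called without the mouse term in any comparison. With it 1 of 10 was lower in subclone 2 lung, against both tumour and liver (3.05% and 2.95% of all genes).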

How the data were processed

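Total RNA of sorted cells was isolated with a column kit with DNase treatment and made into libraries with the TruSeq RNA v2 kit, which does not mark strand (per the labels' protocols for the kit). bcl2fastq 2.15.0.4, cutadapt, STAR, featureCounts and GRCh38 appear in the submitters' processing notes with no role stated. Both count tables, 1 per experiment, hold unnormalized read counts per gene as deposited by the authors. The 3 libraries of subclone 13 of mouse 1 were summed per organ, since the labels call most of them technical replicates. Groups were taken from the labels. Genes were filtered with filterByExpr, scaled by TMM and fitted over all groups of an experiment with edgeR 4.0.16 (R 4.3.3), and p-values were adjusted by Benjamini-Hochberg over 17418, 17549 (retransplantation) and 18950 (joint fit of shared genes) genes in 14 comparisons. Standard errors were taken from the F statistic, as the absolute log2 change over its root. CPM used TMM-scaled totals, and lengths were those of the longest principal transcript in GENCODE v29. Scripts were tested on simulated data. The members and lists were chosen with earlier results of these data known. Values are given in every sample for chains called in either fit or among the 10 highest per kb, and other genes are named from the lists if called. Single marker genes were chosen after their values were seen. A shared mouse number marks 1 animal, per the labels. After subtracting group means, libraries of 1 mouse correlated with a median r of 0.466 over 45 pairs (lowest 0.0454), libraries of different mice with -0.317 over 90 pairs, and those of the 3 retransplanted mice with 0.319. Alternatives were DESeq2 1.42.0, RLE factors, no filter, only the groups compared, the mouse as a term, single libraries for mouse 1, and leaving out each sample or mouse. Lengths from the union of exons were added after seeing the data.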

Additional observations from a re-analysis of the deposited data

Results flagged for a closer look

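In 5 cases every mouse moved one way in 1 contrast and every mouse the opposite way in the contrast it was set against. All 30 tested chains were looked at in each contrast between the subclones. Between the experiments the 28 chains tested in both were looked at. The share of all genes that does this was not counted, so these cases are not shown to exceed it. COL1A2 had lung against liver contrasts that differed by 5.30 ± 0.86 between the retransplantation and the first experiment (edgeR adjusted p = 0.551). In the same pair of contrasts COL7A1 differed by -1.16 ± 0.68 (adjusted p = 0.884) and COL9A3 by -1.99 ± 0.88 (adjusted p = 0.824). Between subclones 13 and 2, COL21A1 differed by -2.26 ± 1.53 in liver against tumour (adjusted p = 1) and COL5A2 by -0.64 ± 1.33 in lung against liver (adjusted p = 1). None of these differences passed the test in edgeR, with or without the mouse term. COL21A1, COL5A2 and COL9A3 had at most 12.2 CPM in any sample.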

How the results depend on the processing

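No chain that was called changed direction under any alternative run. With the replicate block (the mouse as a term) all 12 calls held and the total was 39; the number of chains called was 8 and 6 for subclone 2 lung and liver against tumour, 5 for subclone 2 lung against liver, 9, 5 and 1 for the same contrasts of subclone 13, 2 and 1 between the subclones in tumour and liver, and 2 in the retransplantation samples. DESeq2 called 4 chains in subclone 2 liver against tumour, 4 in subclone 2 lung against liver, 8, 3 and 1 in the subclone 13 contrasts, 1 and 1 between the subclones in tumour and liver, 3 in retransplantation and 1 in the difference between experiments, where it called 1.4%, 1.45%, 2.05%, 1.56%, 0.337%, 0.546%, 1.53%, 2.27% and 0.0583% of the genes it tested. With no filter the counts were 8, 5 and 5 in subclone 2, 7, 5 and 2 in subclone 13, 3 and 2 between the subclones in tumour and liver, 3 in retransplantation and 1 in the difference between experiments, out of 43 chains, where 0.205% to 0.793% of all genes were called in these contrasts of the first experiment, 1.98% in retransplantation and 0.00591% in the difference. Fits of only the groups compared called 2, 0 and 0 chains in subclone 2, where 0.119%, 0% and 0% of all genes were called. In subclone 13 liver against tumour these fits called 0 chains (0.193% of all genes). There RLE factors also gave 0 (0.379%) and library 3 alone for mouse 1 gave 2 (0.446%). Leaving out 1 sample or mouse gave 0 to 5, 0 to 4 and 0 to 2 calls in the subclone 2 contrasts, 0 to 3 in subclone 13 lung against tumour, 0 to 0 in subclone 13 liver against tumour and 0 to 1 in retransplantation; fewer samples were tested there, and the cause of the other changes was not tested. The 13 chains with too few counts in each experiment were not tested at this depth.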

Other observations

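Several enzymes of collagen synthesis were seen after their values were known, in the fit with the mouse as a term. P4HA2, a prolyl hydroxylase subunit that modifies new collagen chains, was lower than in the tumour in subclone 2 lung (-0.87 ± 0.17, adjusted p = 0.00918) and liver (-1.02 ± 0.17, adjusted p = 0.00317) and in subclone 13 lung (-0.97 ± 0.17, adjusted p = 0.00466, edgeR). BMP1, the protease that removes the C-propeptide of fibrillar procollagens, was lower in lung by 0.97 ± 0.20 in subclone 2 and 1.16 ± 0.20 in subclone 13 (adjusted p = 0.0116 and 0.00343). SERPINH1, the collagen chaperone, changed by -0.60 ± 0.15 and -0.67 ± 0.15 in the same comparisons (adjusted p = 0.0393 and 0.0215). FKBP10, a further chaperone of procollagen, was the 1 member of that list higher in a metastasis than in its tumour (3.04 ± 0.59 in subclone 13 lung, adjusted p = 0.00701). None of these 4 genes was called without the mouse term.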
